A study of Homo sapiens with 6 samples.

Results

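The genes described here are those of the response to low oxygen and of glycolysis in HEK293T cells, a human line of embryonic kidney origin that carries adenovirus genes and the SV40 large T antigen. The list held 40 genes, of which 17 encode glycolytic enzymes, 16 are hypoxia genes outside glycolysis (10 targets of the hypoxia-inducible factors, HIF, and 6 genes of oxygen sensing), 3 encode transporters and 4 encode regulators of glycolytic flux. A gene was a member if it had a probe set in the deposited table through GEO's platform annotation, and the probe set with the highest mean over the 6 arrays stood for the gene. Of the 40 genes, 32 were measured, among 9586 named genes in all, and 13 of the 32 had more than 1 probe set. The other 8 (*BNIP3*, *EGLN2*, *VHL*, *TPI1*, *PGAM1*, *ENO1*, *LDHA* and *SLC16A3*) were not analysed here.

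The study transfected the cells transiently with a plasmid that carried the coding region of the transcription factor *USF1* (USF1, 3 arrays) or with the same kind of vector without an insert (Empty vector, 3 arrays). Total RNA was taken 48 hours later and hybridised to Affymetrix arrays, 1 array per sample. The protein was driven by a plasmid in a dividing cell line, no treatment with low oxygen is described, and no untransfected cells are among the samples analysed here. Nothing in the sources used here says whether the 3 samples of a group were separate transfections, so p-values measure the spread between these samples, which may be technical.

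Cells adapt to low oxygen mainly through HIF, a factor made of an oxygen-sensitive alpha subunit and the stable partner ARNT. When oxygen is present, prolyl hydroxylases mark the alpha subunit for destruction through VHL, and the asparaginyl hydroxylase HIF1AN blocks its activating domain. When oxygen is low, HIF binds the short motifs ACGTG and GCGTG and raises genes of glucose uptake, glycolysis, collagen hydroxylation and blood vessel growth. USF1 belongs to the same broad class of helix-loop-helix proteins and binds the E-box CACGTG, which holds the HIF motif ACGTG within it. Glycolysis splits glucose into pyruvate and yields ATP without oxygen, and most of its enzymes exist in several isoforms, only some of which respond to hypoxia.

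Facts of the arrays bear on every value below. Values are on the log2 scale of the normalized table, where a difference of 1 is a doubling, and levels of different probe sets are not comparable. Empty vector replicate 1 stood apart, with an SD of 0.336 of its differences from each of the other Empty vector arrays over all probe sets, against 0.182 between Empty vector replicates 2 and 3, and 0.149 to 0.222 among USF1 arrays. The actin control probe sets gave a 5′ minus 3′ value, a sign of RNA integrity, of −0.53, −0.68 and −0.49 on the USF1 arrays, against −1.34, −1.04 and −0.52 on Empty vector replicates 1, 2 and 3. For *GAPDH* the same value was −0.34, −0.32 and −0.33 on the USF1 arrays, against −0.58, −0.32 and −0.26 on Empty vector replicates 1, 2 and 3, so Empty vector replicate 2 was low for actin and not for *GAPDH*. The part of these values in the results was not tested. *USF1* itself had 1 probe set, at 4.76, 4.94 and 4.68 on the USF1 arrays and 4.37, 5.08 and 5.14 on the Empty vector arrays (adjusted p-value = 0.836 from limma). No source used here places that probe set inside or outside the coding region on the plasmid, so its value does not check the labels. The study's methods describe a western blot of the expressed protein and real-time PCR of some genes that differed on its arrays. Neither is among the data analysed here. Of 12 genes taken as markers of HEK293T, 7 were measured, neurofilament *NEFM* averaging 10.4 ± 0.1 on USF1 arrays and 10.3 ± 0.3 on Empty vector arrays (SD, n = 3 each). Of these 7, the neurofilament relative *INA* fell by 0.39, the kidney development gene *EYA1* fell by 0.41, and none rose at the probe set that stood for it, although the neurofilament *NEFL*, not called there, rose by 0.38 and 0.41 on its other 2 probe sets. The other markers of the line were not analysed here, and of 30 markers of fibroblasts, blood, endothelium, adipocytes and hepatocytes none was measured.

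Of the 32 measured genes, 7 rose in USF1 cells and 0 fell by limma, at a threshold of 0.05 on the p-value adjusted by Benjamini-Hochberg over 16569 probe sets. Over all probe sets, 4.32% were called higher and 7.6% lower, where called means past that threshold. Of the calls over all probe sets 36.2% were higher, against 56.1% once the array medians were set equal, when 11 of the 32 genes rose and none fell. The 7 genes were *ANKRD37*, *P4HA2*, *SLC2A1*, *ALDOA*, *ALDOC*, *HK2* and *PDK1*, with folds between 1.24 and 1.73. The list was chosen with earlier results of these data known, so its shares beside those of all probe sets are description and not independent support. The difference was positive for 25 of the 32 genes, against 39.2% of all probe sets, and its median over the 32 was 0.18, against −0.06 over all probe sets. At an unadjusted p-value under 0.05, 13 were higher and 1 lower, against 9.79% and 21.5% of probe sets. The USF1 arrays lay wholly above the Empty vector arrays for 13 genes and wholly below for 2, against 11.6% and 24.5% of probe sets. The 7 rises were spread over every role on the list but oxygen sensing, where none of 4 measured genes was called. Whether the share called differed between roles was not tested. In bulk RNA after a transient transfection, a change in some of the cells and a smaller change in all of them cannot be told apart.

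**Figure D1:**
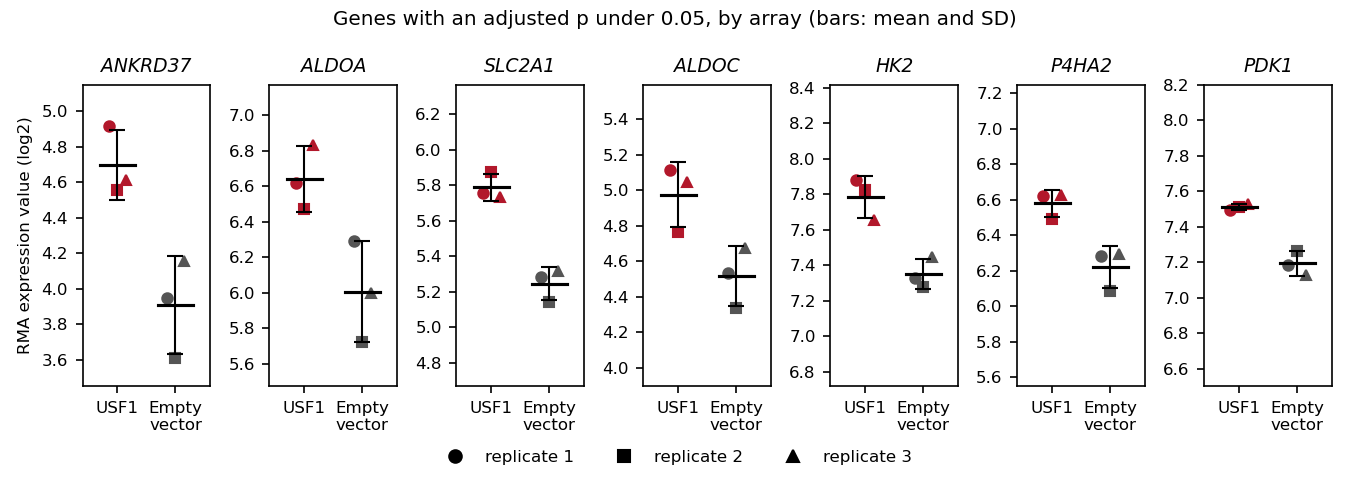
Genes of the hypoxia response and glycolysis with an adjusted p-value under 0.05 from limma. Each panel is 1 gene, the vertical axis is its log2 value, points are the 3 USF1 and 3 Empty vector arrays (marker shape gives the replicate), and bars are the mean and SD of a group. In all 7 panels every USF1 array lies above every Empty vector array, with mean differences from 0.32 for *PDK1* to 0.79 for *ANKRD37*.

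Sequence upstream of the genes was read from RefSeq promoter windows of GRCh38.p14, which run from 250 bases before to 50 after the annotated gene start. A gene with several starts need not use that start in HEK293T. Of the 40 genes, 34 matched a window, and *NDRG1*, *VEGFA*, *JMJD6*, *BNIP3L*, *VHL* and *SLC2A3* did not. The E-box CACGTG, a palindrome and so the same on both strands, was found in 6 of 34 windows (17.6%), against 7.26% of all 35116 windows. These were *ANKRD37*, *ALDOC* and *GAPDH*, and also *BNIP3*, *EGLN2* and *LDHA*, which were not measured. Among measured genes it was in 2 of 7 that rose and 1 of 20 that were not called. The 2 that rose, *ANKRD37* and *ALDOC*, were read on probe sets among the 25% with the lowest mean. The HIF motifs ACGTG or GCGTG, on either strand and outside any CACGTG, were in 22 of 34 windows (64.7%), against 45.4% of all windows. Among measured genes they were in 5 of 7 that rose (71.4%) and 14 of 20 that were not called (70.0%). The windows of *P4HA2* and *PDK1*, which rose, held none of these motifs. All windows include those of genes not measured here, so the shares of the list and of all windows come from unlike sets. A match is a description of letters and not a site of binding.

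The upstream 250 bases of 3 genes that rose are printed, as *ANKRD37* and *ALDOC* held an E-box and *HK2* held only HIF motifs. They are 5′ to 3′ on the gene's strand and end at the base before the start, with CACGTG and the HIF motifs in capitals (CACGT and CACGC are ACGTG and GCGTG read on the other strand). *ANKRD37* is at chr4:185396591-185396840 (plus strand), *ALDOC* at chr17:28576896-28577145 (minus strand) and *HK2* at chr2:74833877-74834126 (plus strand).
ANKRD37: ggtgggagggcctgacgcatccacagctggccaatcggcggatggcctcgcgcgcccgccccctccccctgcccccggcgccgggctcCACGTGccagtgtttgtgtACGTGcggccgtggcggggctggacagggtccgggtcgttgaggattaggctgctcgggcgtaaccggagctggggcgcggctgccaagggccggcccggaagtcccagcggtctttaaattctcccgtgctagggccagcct
ALDOC: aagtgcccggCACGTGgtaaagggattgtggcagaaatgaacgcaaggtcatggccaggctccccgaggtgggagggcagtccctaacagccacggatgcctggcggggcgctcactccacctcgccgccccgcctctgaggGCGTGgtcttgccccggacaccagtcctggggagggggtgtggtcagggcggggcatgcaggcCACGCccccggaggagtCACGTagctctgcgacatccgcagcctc
HK2: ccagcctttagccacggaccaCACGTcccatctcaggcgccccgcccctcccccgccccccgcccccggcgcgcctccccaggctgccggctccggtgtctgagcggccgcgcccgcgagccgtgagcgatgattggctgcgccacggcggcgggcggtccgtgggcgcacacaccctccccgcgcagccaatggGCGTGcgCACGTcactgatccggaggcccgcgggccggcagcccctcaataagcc
The E-box of *ANKRD37* began at −162 from the start, followed by a HIF motif at −143. In *ALDOC* the E-box began at −240, with HIF motifs at −108, −45 and −28. In *HK2* the motifs began at −229, −55 and −48. Upstream of *GAPDH*, which was not called, the E-box began at −81.

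**Figure D2:**
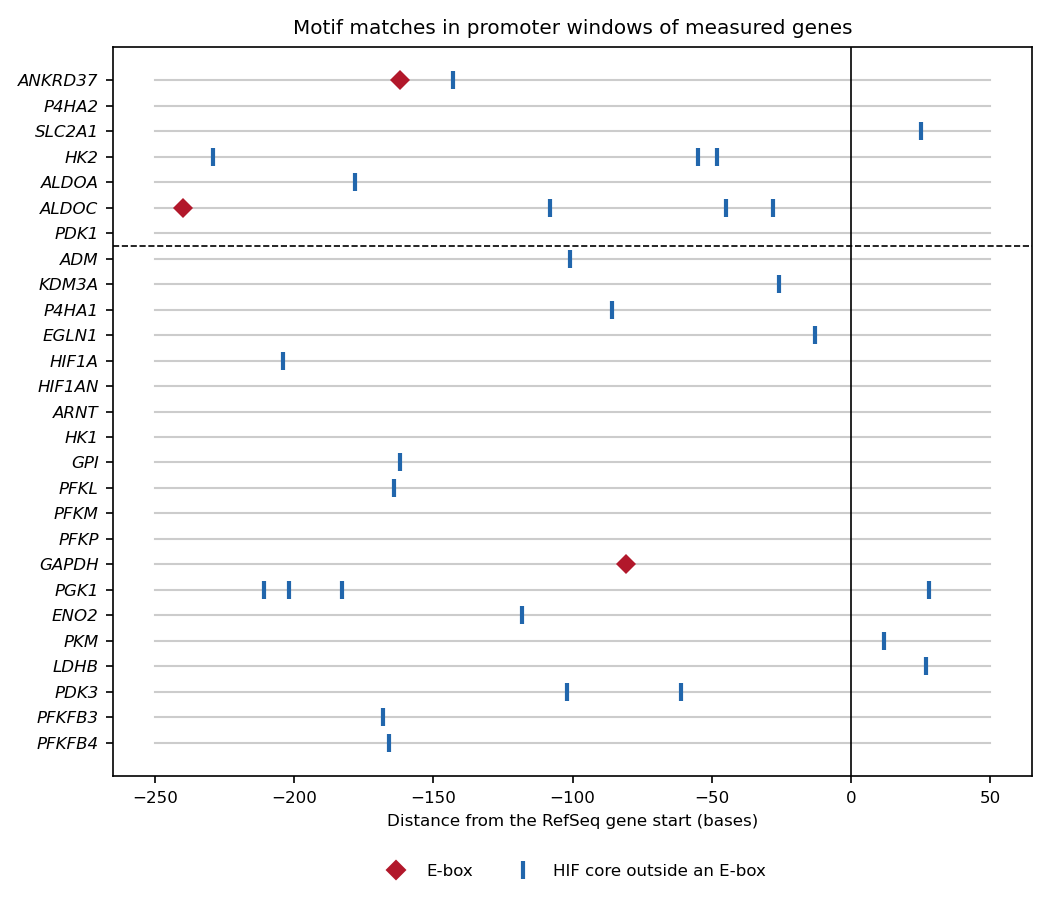
First base of each match to CACGTG (red diamonds) and to ACGTG or GCGTG outside it (blue bars) in the promoter windows of the measured genes. The horizontal axis is the distance in bases from the annotated start (vertical line), from −250 to 50, and genes above the dashed line rose in USF1 cells. Red diamonds mark *ANKRD37* and *ALDOC* above the line and *GAPDH* below it.

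Among targets of HIF outside glycolysis, *ANKRD37*, which encodes an ankyrin repeat protein induced by hypoxia and whose window held an E-box and a HIF motif, had 4.92, 4.55 and 4.61 on USF1 arrays 1, 2 and 3, against 3.95, 3.61 and 4.16 on Empty vector arrays 1, 2 and 3. It differed by 0.79 (SE 0.15, adjusted p-value = 0.0186 from limma), and the lowest USF1 array lay above the highest Empty vector array. *P4HA2*, an alpha subunit of the collagen prolyl hydroxylase, had 6.62, 6.49 and 6.62 on USF1 arrays and 6.28, 6.08 and 6.29 on Empty vector arrays. It rose by 0.36 (SE 0.09, adjusted p-value = 0.0438 from limma), with replicate 2 lowest in each group and no overlap. Its relative *P4HA1*, the more widely expressed alpha subunit, had 7.21, 6.79 and 7.17 on USF1 arrays and 6.62, 6.41 and 6.71 on Empty vector arrays. This difference of 0.48 (SE 0.14) was larger than that of *P4HA2* and did not pass the test (adjusted p-value = 0.0545 from limma), although the groups did not overlap. The USF1 arrays spread more widely for *P4HA1* (SD 0.24) than for *P4HA2* (SD 0.08).

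At the probe sets that stood for them, the other measured targets gave smaller differences. *ADM*, the vessel-dilating peptide adrenomedullin, differed by 0.33, *BNIP3L*, a mitophagy receptor, by 0.28, *KDM3A*, a histone demethylase, by 0.24, and *NDRG1*, a stress-response gene, by 0.23. None of the 4 passed (adjusted p-values from 0.0684 upward, limma), while for *ADM*, *BNIP3L* and *KDM3A* the groups did not overlap. The other probe set of *BNIP3L* differed by 0.42 without overlap and did not pass either (adjusted p-value = 0.0535 from limma). *JMJD6*, a dioxygenase, differed by 0.03. *VEGFA*, the growth factor of blood vessels and the best known HIF target, had 7.53, 7.73 and 7.54 on USF1 arrays and 7.71, 7.88 and 7.60 on Empty vector arrays. Its difference was −0.13 (95% interval −0.37 to 0.11, adjusted p-value = 0.435 from limma), the arrays of the groups interleaved, and its other 3 probe sets differed by −0.19, 0.12 and −0.07. *VEGFA* was the only negative value among the 9 measured targets, whose median was 0.28.

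Of the 4 measured genes of oxygen sensing 1 had a positive difference, against 8 of the 9 targets, and *EGLN1* was almost at 0. *HIF1A*, the oxygen-sensitive subunit, had 8.85, 9.003 and 8.92 on USF1 arrays, against 8.86, 8.86 and 8.74 on Empty vector arrays. The difference was 0.11 (95% interval −0.09 to 0.30, adjusted p-value = 0.440 from limma), with USF1 replicate 1 inside the range of the Empty vector arrays. An array measures the transcript, and HIF1A is controlled largely through the stability of its protein, which was not measured here. *ARNT* had 4.86, 4.72 and 5.02 on USF1 arrays and 5.08, 5.13 and 5.03 on Empty vector arrays. Its difference of −0.21 did not pass (adjusted p-value = 0.192 from limma), although every USF1 array was lower, and its other 2 probe sets gave −0.22 and −0.15. *HIF1AN*, the inhibitor of HIF, had 5.51, 5.69 and 5.47 on USF1 arrays, against 6.15, 5.89 and 5.84 on Empty vector arrays. The groups did not overlap, and the difference of −0.40 (SE 0.11) did not pass (adjusted p-value = 0.0534 from limma). Its other 2 probe sets differed by 0.004 and −0.07, so the lower value was seen on 1 probe set of 3. *EGLN1*, the main prolyl hydroxylase and itself a HIF target, differed by −0.00012 (95% interval −0.24 to 0.24).

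Glucose enters the pathway through carriers in the cell membrane. *SLC2A1*, the carrier GLUT1, had 5.76, 5.88 and 5.74 on USF1 arrays and 5.28, 5.14 and 5.32 on Empty vector arrays. It rose by 0.54 (SE 0.09, 1.46-fold, adjusted p-value = 0.0110 from limma), the smallest adjusted p-value of the 32 genes, and the groups lay apart by more than either group's own range. *SLC2A3*, the high-affinity carrier GLUT3, differed by 0.0035 (95% interval −0.24 to 0.25), a contrast between the carriers that was not tested.

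Of 13 measured glycolytic enzymes, 3 rose and none fell. *HK2*, the inducible hexokinase that commits glucose to the pathway and had 3 HIF motifs and no E-box, had 7.88, 7.82 and 7.65 on USF1 arrays and 7.32, 7.28 and 7.45 on Empty vector arrays. It rose by 0.44 (SE 0.10, adjusted p-value = 0.0259 from limma), while the widely expressed *HK1* differed by 0.12 (adjusted p-value above the threshold, 95% interval −0.10 to 0.34). *ALDOA*, the main aldolase, had 6.62, 6.47 and 6.84 on USF1 arrays and 6.29, 5.73 and 6.0004 on Empty vector arrays. Its rise of 0.64 (SE 0.15, adjusted p-value = 0.0345 from limma) rested on 1 probe set of a class whose probes may also match other transcripts. The rises of *ANKRD37*, *P4HA2*, *SLC2A1*, *HK2* and *ALDOC* also rested on 1 probe set each. *ALDOC*, the aldolase of brain that is also induced by hypoxia and the other gene of the 7 with an E-box, had 5.11, 4.77 and 5.04 on USF1 arrays and 4.53, 4.34 and 4.68 on Empty vector arrays. It rose by 0.46 (SE 0.13), nearest the threshold of the 7 (adjusted p-value = 0.0492 from limma), and its lowest USF1 array, replicate 2, lay just above the highest Empty vector array, replicate 3.

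The other enzymes are given in the order of the pathway. *GPI*, which turns glucose phosphate into fructose phosphate, had 8.75, 8.43 and 8.64 on USF1 arrays and 8.47, 8.05 and 8.18 on Empty vector arrays. The groups overlapped at replicate 2 of USF1 and replicate 1 of Empty vector, and the difference of 0.37 did not pass (adjusted p-value = 0.0964 from limma). The isoforms of phosphofructokinase, the main control step, differed by 0.16 for *PFKL*, 0.0036 for *PFKM* and 0.24 for *PFKP*. Without USF1 replicate 1 the difference was 0.09 for *PFKL* and 0.11 for *PFKP*, and without USF1 replicate 2 it was 0.41 for *PFKP*. *GAPDH*, often used as a loading control, had 11.54, 11.32 and 11.48 on USF1 arrays, against 11.31, 11.13 and 11.32 on Empty vector arrays. The difference was 0.20 (95% interval −0.03 to 0.42, adjusted p-value = 0.209 from limma), and all of its probe sets measured here were the array maker's control sets, the others differing by 0.19 and 0.24. *PGK1*, the first step that makes ATP, differed by 0.16, and its other 3 probe sets by 0.34, 0.29 and 0.19. The steps that follow were close to 0, at 0.05 for the enolase *ENO2*, 0.02 for the pyruvate kinase *PKM* and −0.02 for the lactate dehydrogenase *LDHB* (95% interval −0.21 to 0.18). All 8 measured enzymes upstream of *GAPDH* had positive differences, a grouping made after the values were seen, and the 3 that rose were among them. *PFKM*, the smallest of the 8, turned negative when USF1 replicate 1 or 3 or Empty vector replicate 2 or 3 was left out. The enolase *ENO1* and the lactate dehydrogenase *LDHA*, known HIF targets, were not analysed here.

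Regulators of flux were measured in full. *PDK1*, the kinase that keeps pyruvate from the citric acid cycle by inhibiting pyruvate dehydrogenase, had 7.49, 7.51 and 7.53 on USF1 arrays and 7.19, 7.26 and 7.13 on Empty vector arrays. It rose by 0.32 (SE 0.08, adjusted p-value = 0.0421 from limma), with the tightest USF1 group of the 7 genes (SD 0.02). Its other probe set differed by 0.23 and was not called (adjusted p-value = 0.277 from limma). *PFKFB4*, which makes the sugar signal that activates phosphofructokinase, had 5.29, 5.17 and 5.23 on USF1 arrays and 5.10, 4.59 and 4.75 on Empty vector arrays. The difference of 0.42 did not pass (adjusted p-value = 0.0708 from limma) although the groups did not overlap, with an Empty vector SD of 0.26. The related *PFKFB3* differed by −0.05 and the kinase *PDK3* by −0.06.

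**Figure D3:**
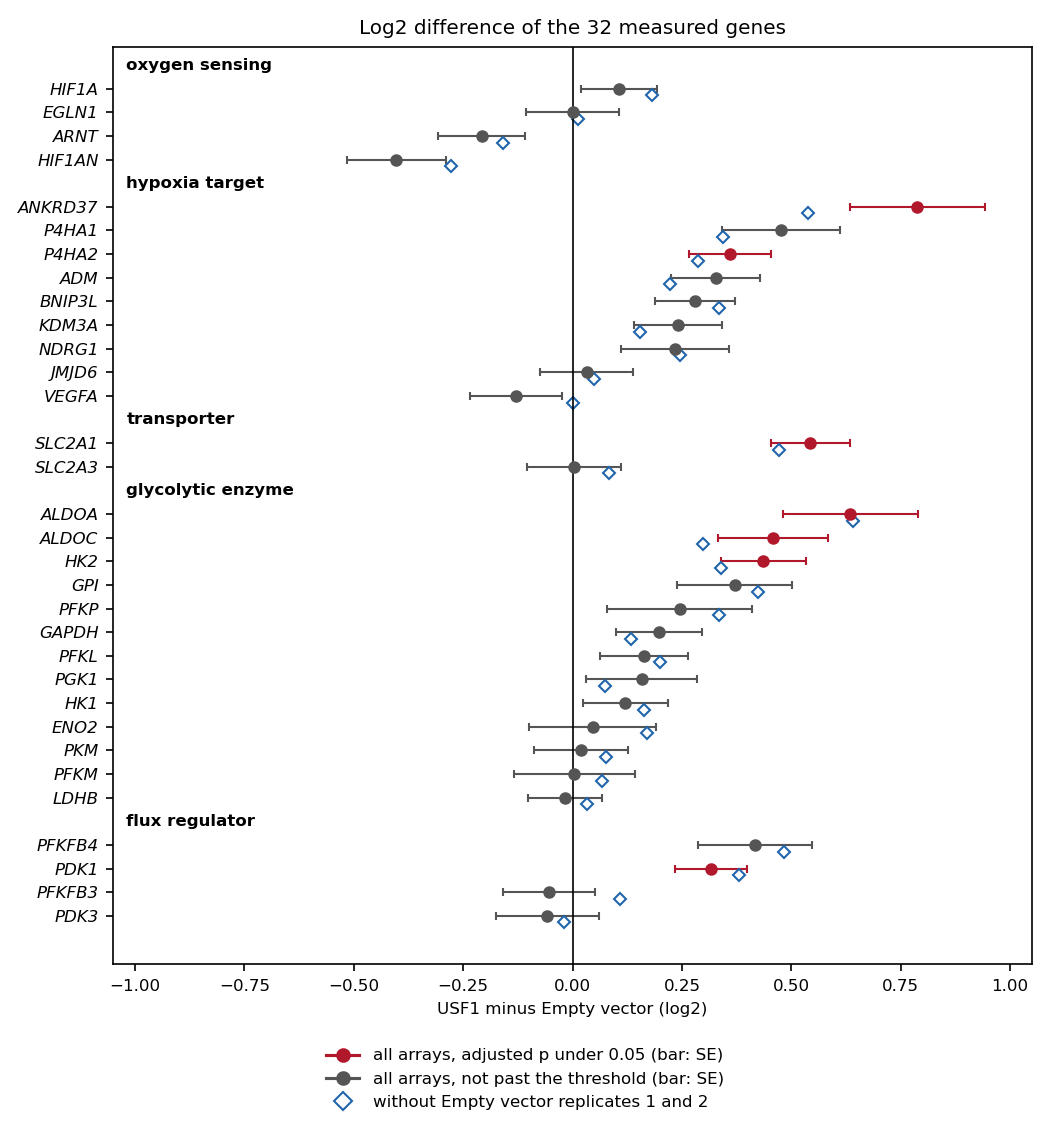
Difference in log2 value, USF1 minus Empty vector, of the 32 measured genes by role. The horizontal axis is the log2 difference, circles with SE bars are over all arrays (red if called by limma, grey otherwise), and open diamonds are without Empty vector replicates 1 and 2. The differences run from −0.40 for *HIF1AN* to 0.79 for *ANKRD37*, and all 7 red circles lie right of 0.

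The enzymes were then set beside the 13 measured hypoxia genes outside glycolysis (9 targets and 4 genes of oxygen sensing). Of the hypoxia genes, 2 rose and none fell, with a median difference of 0.23 and a range of −0.40 to 0.79. Of the 13 enzymes, 3 rose, with a median of 0.16 and a range of −0.02 to 0.64. The enzymes were positive in 12 of 13 and the hypoxia genes in 9 of 13. The medians differed by less than the spread over arrays of the enzymes' own median deviation (pooled SD 0.125). That deviation, the median over the enzymes of each array's distance from a gene's mean over all 6 arrays, was 0.19, −0.03 and 0.10 on USF1 arrays and 0.05, −0.23 and −0.10 on Empty vector arrays, so by this measure the groups overlapped. For the hypoxia genes it was 0.12, 0.08 and 0.06 on USF1 arrays and −0.02, −0.21 and −0.06 on Empty vector arrays, without overlap.

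Most of the enzymes were high and low on the same arrays within a group. Replicate 2 was the lowest USF1 array for 10 of the 13 enzymes and the lowest Empty vector array for 11 of 13, against 35.6% and 31.3% of all probe sets. Replicate 1 was the highest USF1 array for 10 and the highest Empty vector array for 8, against 43.3% and 51.4% of all probe sets. For the hypoxia genes outside glycolysis replicate 2 was lowest in 7 of 13 in USF1 and 8 of 13 in Empty vector, and replicate 1 highest in 4 of 13 in each group. Enzymes share arrays, so the 13 are not independent of each other.

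**Figure D4:**
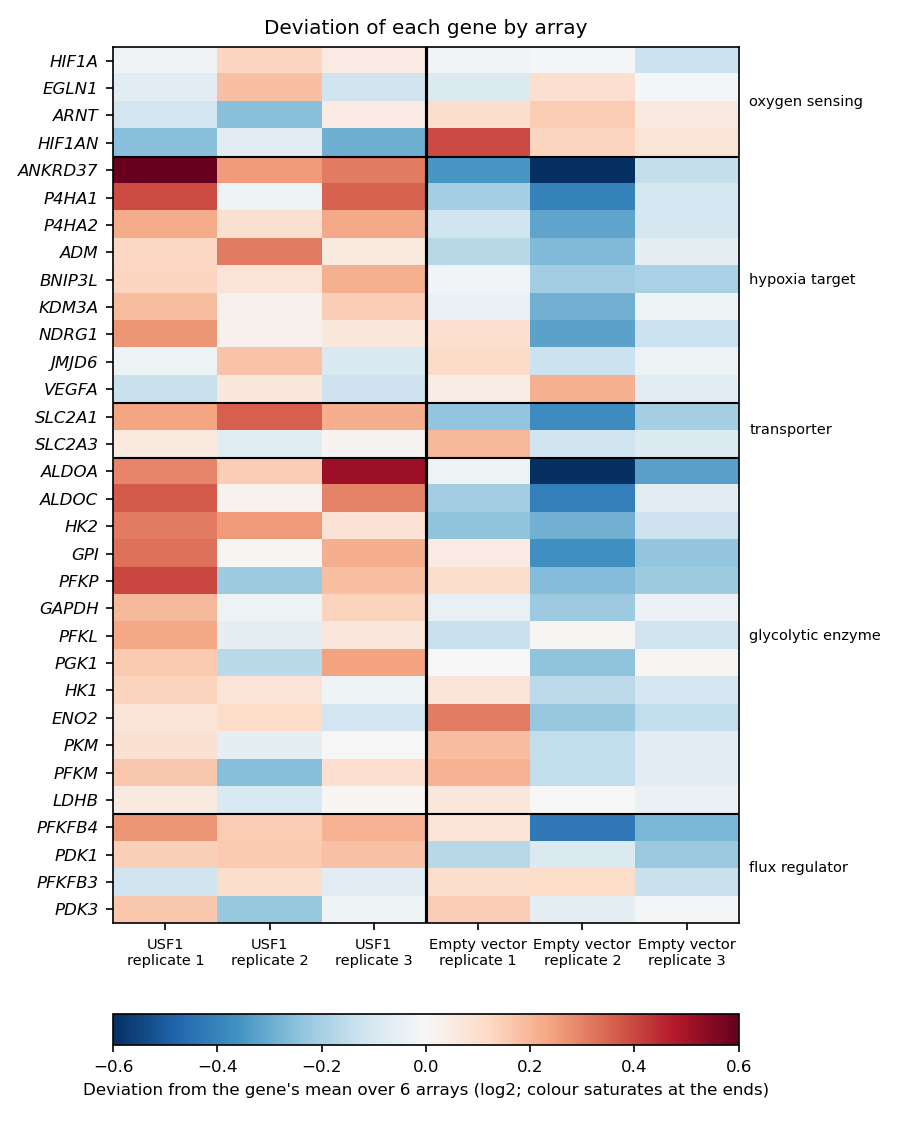
Deviation of each gene's log2 value from its mean over the 6 arrays, as colour, red above and blue below the mean, with colours saturated at −0.6 and 0.6. Rows are the 32 measured genes by role and columns are the USF1 and then the Empty vector arrays; the median over the enzymes is lowest on replicate 2 in each group, at −0.03 in USF1 and −0.23 in Empty vector.

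The comparison was repeated without single arrays, and without the pair of Empty vector arrays that had the lowest actin values. Without Empty vector replicate 1, 8 genes rose and none fell, against 5.29% and 6.95% of probe sets, and 5 of the 7 were among them (*ANKRD37*, *P4HA2*, *SLC2A1*, *ALDOA* and *HK2*), joined by *BNIP3L*, *GPI* and *PFKFB4*. Without Empty vector replicate 2 only *SLC2A1* rose, against 1.73% of probe sets higher and 1.73% lower. Leaving out USF1 replicate 1 also left *SLC2A1* alone, against 1.32% of probe sets higher and 1.49% lower, as did leaving out USF1 replicate 3, against 1.34% and 0.887%. Leaving out Empty vector replicate 3 left *ANKRD37*, *HK2* and *SLC2A1*, against 2.46% higher and 4.24% lower. Without Empty vector replicate 2 or 3, or USF1 replicate 1 or 3, calls over all probe sets were thus also fewer than with all arrays. Without Empty vector replicate 1 they were not, at 877 higher and 1151 lower against 715 and 1259. Without USF1 replicate 2, 7 genes rose, 6 of them among the 7 and *P4HA1* in place of *PDK1*, and *HIF1AN* fell, against 3.94% of probe sets higher and 9.47% lower. *SLC2A1* was thus the only gene of the 32 called without each array in turn. Without Empty vector replicates 1 and 2, Empty vector replicate 3 alone stood for its group and was assumed to vary as the USF1 arrays do. None of the 32 genes was then called by limma, against 1.31% of probe sets higher and 0.362% lower, and at an unadjusted p-value under 0.05 there were 8 higher, against 8.16%.

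The sizes moved as well as the calls. Without Empty vector replicate 2 the median of the hypoxia genes was 0.13, against 0.23 over all arrays. That of the enzymes was 0.14, against 0.16. Without replicates 1 and 2 the median was 0.17 for the enzymes and 0.18 for the hypoxia genes, against −0.04 over all probe sets, and 29 of 32 genes were positive, against 42.2% of probe sets. All 13 enzymes and all 9 targets were positive, *VEGFA* at 0.00032. The difference was 0.64 for *ALDOA* (adjusted p-value = 0.0974 from limma), 0.54 for *ANKRD37* (0.152), 0.47 for *SLC2A1* (0.117), 0.38 for *PDK1* (0.161), 0.34 for *HK2* (0.248), 0.30 for *ALDOC* (0.373) and 0.29 for *P4HA2* (0.289). *ALDOC* moved by over 1.5 times. The second *PDK1* probe set turned to −0.09. Of the 7, *ANKRD37* had its highest Empty vector value on replicate 3, as did *SLC2A1*, *HK2*, *ALDOC* and *P4HA2*, while *ALDOA* had it on replicate 1 and *PDK1* on replicate 2.

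Other genes of the pathways were counted from lists of their own, beside 4.32% of all probe sets called higher and 7.6% lower. These lists too were chosen with earlier results of these data known. Of 34 further hypoxia targets 24 were measured, and of these 5 rose and 1 fell, with a median of 0.02. *MXI1*, a Max-binding repressor of MYC function, averaged 8.37 ± 0.06 in USF1 and 7.83 ± 0.04 in Empty vector (SD, n = 3 each; 0.54, adjusted p-value = 0.0078 from limma). *AK4*, a mitochondrial adenylate kinase, averaged 7.52 ± 0.05 in USF1 and 6.80 ± 0.17 in Empty vector (SD, n = 3 each; 0.73, adjusted p-value = 0.0069 from limma), with all 3 probe sets called. *BHLHE41*, a helix-loop-helix repressor, rose by 0.73, the prelamin-binding *NARF* by 0.62 and the chemokine receptor *CXCR4* by 0.38, the last with 1 of 3 probe sets called. *STC2*, the secreted stanniocalcin, fell by 0.57 with 1 of 2 probe sets called. The lipid droplet gene *HILPDA* at −0.59, the mTOR inhibitor *DDIT4* at −0.55 and *INSIG2*, a gene of sterol control, at −0.32 did not pass. Known hypoxia targets lay on either side of 0 in these cells.

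Of 11 further measured regulators of HIF, 1 rose, the alpha subunit *EPAS1* (HIF2A), which averaged 6.24 ± 0.02 in USF1 and 5.84 ± 0.06 in Empty vector (SD, n = 3 each; 0.40, adjusted p-value = 0.0202 from limma). Of 29 further genes of glycolysis and glucose handling only 9 were measured, so most of that list was not seen. None of the 9 rose and 2 fell, the testis lactate dehydrogenase *LDHC* by 0.73 and the glucose carrier *SLC2A12* by 0.62. The median of the 9 was −0.32. *PGM1*, which links glycogen to glycolysis, differed by 0.42 and did not pass (adjusted p-value = 0.101 from limma). Of 10 measured genes of pyruvate entry into the mitochondrion (13 listed), 1 rose, the pyruvate carrier subunit *MPC1* by 0.40. The median of the 10 was −0.06. The pentose phosphate pathway branches from glycolysis to make NADPH and ribose. Of its 9 measured genes (10 listed), 1 rose, the transketolase-like *TKTL1* by 0.77, with both probe sets called. Without Empty vector replicates 1 and 2, *AK4* (0.93, adjusted p-value = 0.0143 from limma) and *TKTL1* (0.88, adjusted p-value = 0.0213 from limma) were the genes of these lists still called. None of the list medians but that of the 9 glucose handling genes lay more than 0.1 from the −0.06 of all probe sets.

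**Figure D5:**
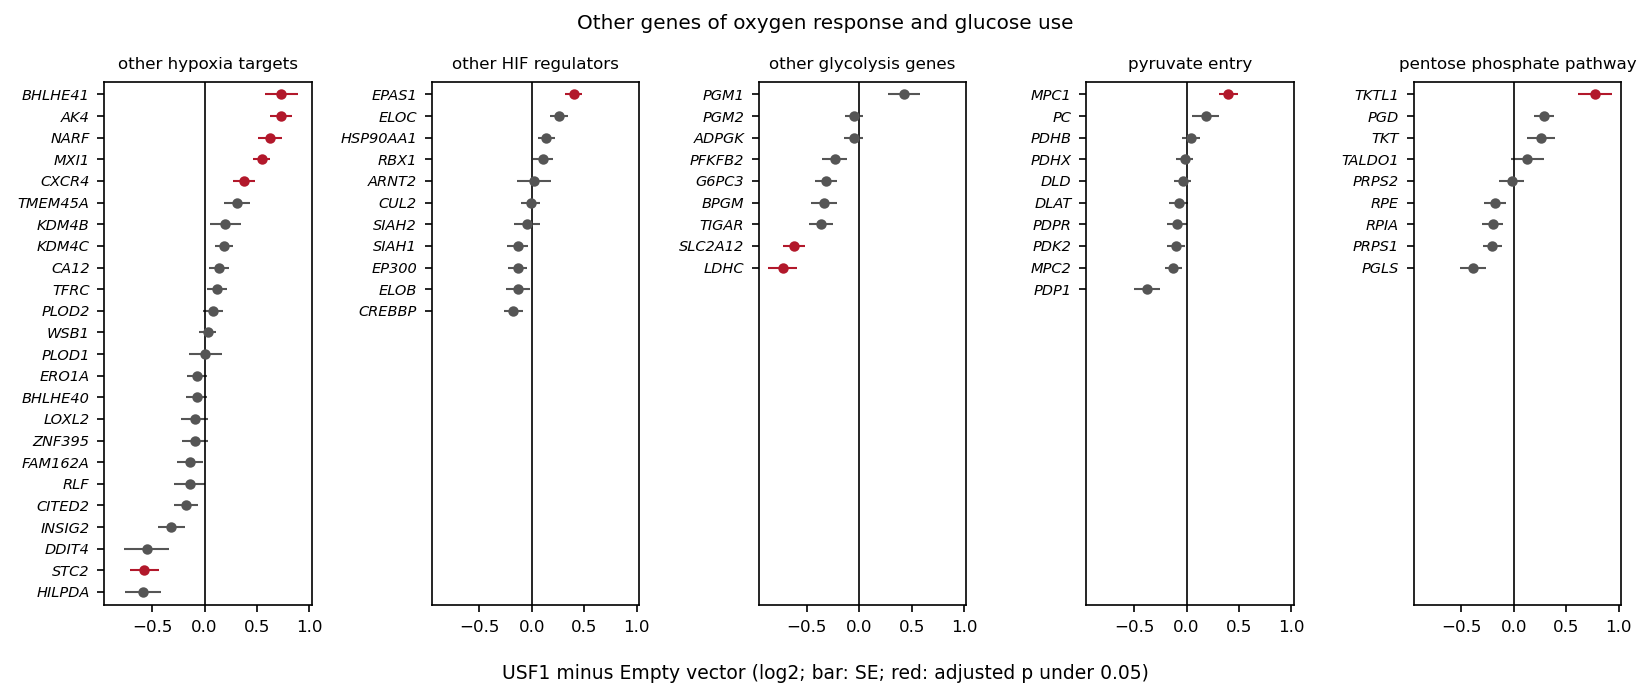
Log2 difference, USF1 minus Empty vector, of the measured genes of 5 further lists, 1 panel a list. Each point is 1 gene with its SE bar along the horizontal axis, red if called by limma. The 24 further hypoxia targets spread from −0.59 to 0.73, and 8 of the 9 genes of glucose handling lie below 0.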

How the data were processed

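Per the study's methods, the authors read the array scans in R 2.8.0 with justRMA, which subtracts background and normalizes by quantiles, with an alternate probe definition that masked mis-targeted and nonspecific probes. Probe sets in which too few probes were left, or that were called absent on most arrays, had been dropped, and ComBat had been applied against batch effects. No source used here says which arrays shared a batch, so the effect on the spread between arrays cannot be judged. The deposited values are RMA log2 values per probe set, from 1.89 to 12.9, for 16569 probe sets. The number of arrays, 3 per group, limits the precision. Platform annotation listed 15669 probe sets, 15099 with 1 gene and 570 with several. The other 900 probe sets were not listed and had no gene. Probe sets with several genes named no gene.

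USF1 minus Empty vector was fitted per probe set with limma 3.58.1 in R 4.3.3 (lmFit and eBayes), with no covariate, and p-values were adjusted by Benjamini-Hochberg over all probe sets at a threshold of 0.05. The calculation was tested on simulated data with independent normal noise and no array effects. That test checks the code and cannot bear on calls that move with single arrays. Intervals are 95% intervals of the moderated fit (8.53 degrees of freedom). Members, roles, marker and pathway lists were chosen with earlier results of these data known. Values on every array are given for each member called, for *HIF1A*, *ARNT*, *VEGFA* and *GAPDH*, and for the 3 largest differences in each direction among members not called. A further probe set is named where its call differed, and others were added for genes described in full. Called genes of the pathway lists are named, at most 8 a list. Alternatives left out arrays, added the replicate number as a block, centred or quantile normalized the arrays again, dropped the 25% of probe sets with the lowest mean, or used t-tests with equal or unequal variances (the fractional degrees of freedom in the study's supplement are those of the second, called the methods' t-test), an intensity trend with a robust prior, array weights or other probe set rules. Promoter windows came from RefSeq (GRCh38.p14).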

Additional observations from a re-analysis of the deposited data

How the results depend on the processing

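With limma on all arrays 7 of the 32 genes rose and 0 fell (13 higher and 1 lower at an unadjusted p-value under 0.05). Leaving out each array in turn gave 1 to 8 higher and 0 to 1 lower, 0 to 3 glycolytic enzymes, and 0 to 3 hypoxia genes outside glycolysis with a median from 0.13 to 0.28. The arrays whose loss left 1 call were USF1 replicates 1 and 3 and Empty vector replicate 2. Leaving out Empty vector replicates 1 and 2 together gave 0 genes, 0 enzymes and 0 hypoxia genes. Centring gave 11 genes, 5 of them hypoxia genes, with 1041 higher and 815 lower over all probe sets. Further quantile normalization gave 10 genes, 5 of them hypoxia genes, with 976 higher and 959 lower over all probe sets. Without either step these were 715 and 1259, so higher calls also became more frequent over all probe sets. The methods' t-test (unequal variances) gave 0 genes, 0 enzymes and 0 hypoxia genes after adjustment (1 probe set in all), and 9 genes higher and 1 lower unadjusted (3419 probe sets in all). A t-test with equal variances gave 0, 0 and 0 (160 probe sets in all), and 10 higher and 1 lower unadjusted (4265 probe sets in all). The intensity trend gave 4 hypoxia genes and 1 gene lower, and array weights 13 genes higher, 6 of them hypoxia genes, and 1 lower. The filter on low probe sets gave 6 higher and 1 lower, and the lower gene was *HIF1AN* each time. That filter left 29 of the 32 genes and 5 of the 7 calls, as it removed *ANKRD37* and *ALDOC* for their low mean values. The mean over probe sets gave 5 hypoxia genes and lost *PDK1*. For the intensity trend, array weights, the filter and the mean, calls over all probe sets were not counted. Their gene counts therefore have no share of all probe sets beside them. The cause of these moves was not tested. The median of the enzymes ran from 0.11 to 0.26 over single arrays left out.

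The replicate number as a block gave 10 higher, the 7 with *GPI*, *P4HA1* and *PFKFB4*, and 908 higher and 1967 lower over all probe sets, against 715 and 1259 without it. Deviations from group means correlated between USF1 and Empty vector arrays of the same number at 0.0958, 0.246 and 0.129, and each array correlated best with its own number. No label ties the numbers, so the main fit did not take the arrays as paired. Whether the numbers mark pairs was not tested.

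At the probe sets that stood for genes, signs turned only in genes that were not called. Their differences over all arrays ran from −0.13 for *VEGFA* to 0.05 for *ENO2*. The second probe set of *PDK1*, a called gene, also turned, from 0.23 to −0.09 without Empty vector replicates 1 and 2. Without Empty vector replicates 1 and 2, *VEGFA* was 0.00032, *EGLN1* 0.0123, *LDHB* 0.0326 and *PFKFB3* 0.109. Centring gave 0.0684 for *EGLN1*, 0.0512 for *LDHB*, 0.0104 for *PDK3* and 0.0143 for *PFKFB3*, and quantile normalization 0.0257 for *EGLN1*, 0.0069 for *PDK3* and 0.0112 for *PFKFB3*. Array weights gave 0.0226 for *LDHB* and 0.0441 for *PDK3*, and the mean over probe sets 0.0028 for *PDK3*. Over single arrays left out, *JMJD6* ran from −0.0458 to 0.0967, *EGLN1* from −0.0901 to 0.0584, *SLC2A3* from −0.0564 to 0.103, *PFKM* from −0.0758 to 0.132, *ENO2* from −0.0556 to 0.21, *PKM* from −0.0501 to 0.117, *LDHB* from −0.0483 to 0.0237 and *PDK3* from −0.154 to 0.0413. Of the other values of single genes, 426 kept direction and call, 31 gained a call and 47 lost one.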
